A study of Rattus norvegicus with 12 samples.

Results

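Transcript levels of 6 genes of the angiotensin, endothelin and corticosteroid systems were followed in the hearts of ZSF1 rats: Ace, Agtr1a, Ednra, Ednrb, Nr3c1 and Nr3c2. The genes were taken by symbol, without regard to letter case, from a deposited table of 17602 genes, and all 6 were found. Of the 6, 5 passed a filter on low values (1 TPM or more in 4 or more of the 12 samples; TPM is a gene's length-corrected share of all transcripts in its sample), as did 10526 of the 17104 genes with numbers in every sample. Agtr1a was below 1 TPM in 12 of 12 samples and was the only one of the 6 below that level in any sample, both as deposited and after the rescaling described below.

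RNA sequencing was done on myocardium, labelled cardiac muscle, from 3 groups of 4 samples: lean ZSF1 rats, obese ZSF1 rats, and obese ZSF1 rats given nicotinamide (NAM), a precursor of NAD+, at 24 mM in their drinking water from 8 to 20 weeks of age. The study uses the obese ZSF1 rat, which is hypertensive and has metabolic syndrome, as a model of heart failure with preserved ejection fraction, and asks whether raising NAD+ through NAM alters the diastolic defect; lean ZSF1 rats are its controls without heart failure. All 12 samples share the ZSF1 strain. Neither obese group's labels name an allele, and both call the obesity diet-induced, whereas the series' description gives it as a property of the ZSF1 model. No lean animals with NAM are among the samples, so NAM is compared within obese hearts only. The labels give no sex, age at sampling, part of the heart or sequencing batch. They also do not say whether the samples of a group came from separate animals, so the p-values describe the spread among these samples, which may be technical.

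Angiotensin-converting enzyme, encoded by Ace and carried mainly on endothelial cells, makes angiotensin II from angiotensin I and breaks down bradykinin. Angiotensin II acts on vessels, fibroblasts and cardiomyocytes largely through the type 1 receptor, whose main rodent form is encoded by Agtr1a. Endothelins from the endothelium constrict vessels through the receptor encoded by Ednra, found on smooth muscle, pericytes and cardiomyocytes, whereas the Ednrb product on endothelial cells clears the peptide and triggers release of nitric oxide. Nr3c1 encodes the glucocorticoid receptor and Nr3c2 the mineralocorticoid receptor, related nuclear receptors that bind much the same hormones in the heart. Blockers of the angiotensin and mineralocorticoid receptors are used to treat heart failure.

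The series held no library that duplicated another (0 identical pairs), and between 14759 and 15120 genes were above 0 TPM in each sample. Only TPM were deposited here, so the read depth behind each value is unknown. Mitochondrially encoded transcripts took up 66.2% to 70.4% of all TPM in lean samples, 74.6% to 75.5% in obese samples and 69.9% to 73.8% in NAM-treated samples. TPM are shares of 1 fixed total, so 2 scales were used. The first is TPM as deposited. The second follows median-of-ratios rescaling, which divides each sample by its median ratio to the geometric mean over the filtered genes. Some values below are given as deposited only. These divisors were 1.03 to 1.09 in lean, 0.841 to 0.928 in obese and 0.994 to 1.17 in NAM-treated samples. As deposited, the median log2 change of all filtered genes was -0.20 between obese and lean hearts, 0.25 between NAM-treated and obese hearts and 0.054 between NAM-treated and lean hearts. After rescaling the same medians were 0.0032, -0.0078 and 0.0017. The labelled tissue was checked with 9 cardiomyocyte markers, whose summed level was 14667 to 23794 TPM in the 12 samples.

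Glucocorticoid receptor transcript was the most abundant of the 6 in 12 of 12 samples, mineralocorticoid receptor transcript ranked the fifth in all 12 and Agtr1a the lowest in all 12. Ace, Ednra and Ednrb lay between them and changed places from sample to sample. TPM are corrected for transcript length, so these levels can be set beside each other. Among the filtered genes, the mean level of Nr3c1 over all samples stood at percentile 74.2, Ace at 64.0, Ednra at 62.9, Ednrb at 52.4 and Nr3c2 at 31.2. Nr3c1 exceeded Ace without overlap of their ranges in the lean and the obese groups, whereas under NAM the ranges overlapped although Nr3c1 was the higher in 4 of 4 samples. Nr3c2 and Agtr1a did not overlap in any group.

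**Figure D1:**
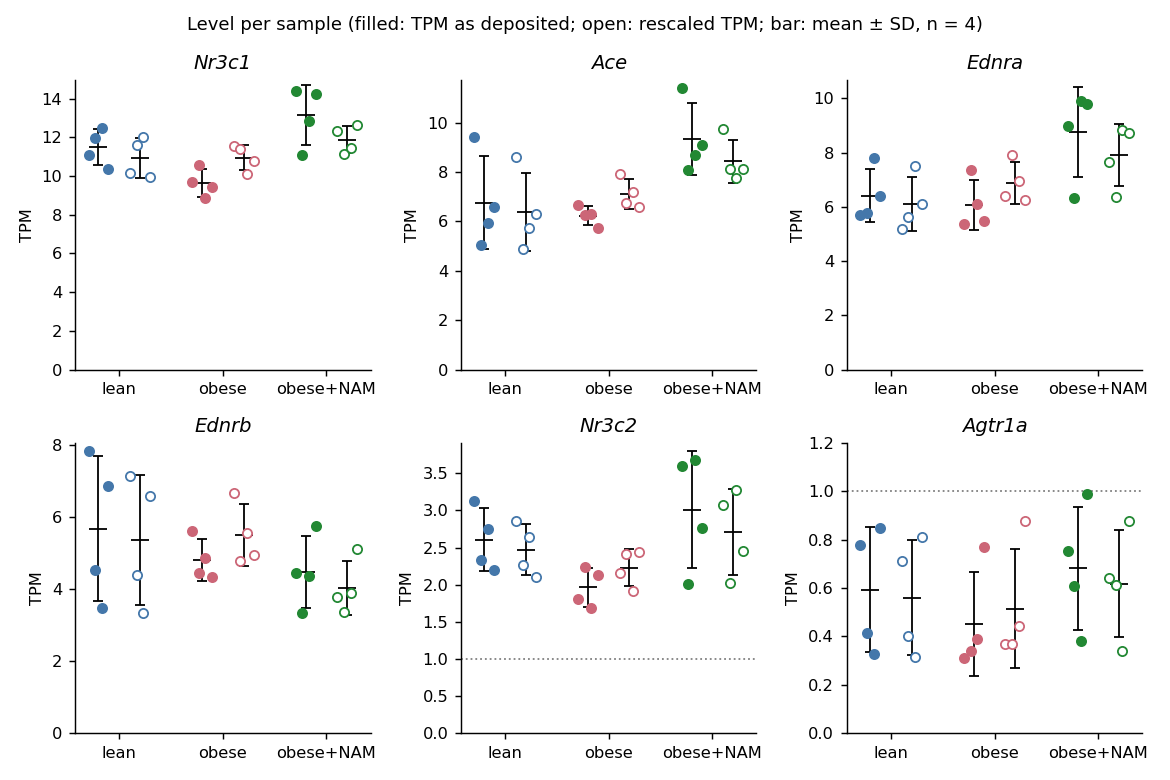
Level of each of the 6 genes in every sample (TPM, linear axis from 0, 1 panel a gene with its own range) by group, with filled points as deposited, open points after rescaling, bars for the mean ± SD of 4 samples and a dotted line at 1 TPM. All Agtr1a points lie below 1 TPM, and the NAM-treated points of Ace and Nr3c1 lie above all obese points as deposited and overlap them after rescaling.

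Ace read 9.43, 5.06, 5.96 and 6.59 TPM in the 4 lean samples, 6.67, 6.26, 6.28 and 5.75 TPM in the obese samples, and 11.4, 8.07, 8.71 and 9.11 TPM in the NAM-treated samples. The lowest NAM-treated sample was above the highest obese sample, while lean replicate 1 reached into the NAM-treated range. Group means were 6.76 ± 1.89, 6.24 ± 0.38 and 9.33 ± 1.46 TPM (SD, n = 4 each), and after rescaling 6.39 ± 1.59, 7.11 ± 0.61 and 8.43 ± 0.89.

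Agtr1a read 0.778, 0.415, 0.329 and 0.848 TPM in lean samples, 0.309, 0.340, 0.388 and 0.769 TPM in obese samples, and 0.753, 0.608, 0.380 and 0.987 TPM in NAM-treated samples. The groups overlapped throughout, and within each group the highest sample was more than 2 times the lowest. In a fit with no filter on low values, its log2 change as deposited was -0.13 for obese against lean (limma adjusted p = 0.662), 0.21 for NAM-treated against obese (adjusted p = 0.408) and 0.081 for NAM-treated against lean (adjusted p = 0.881). Its rescaled changes in the same order were -0.044, 0.099 and 0.055 (limma adjusted p = 0.933, 0.836 and 0.943). The log2(TPM + 1) scale of these fits understates changes at so low a level, and no difference was detectable on either scale. Group means were 0.592 ± 0.259, 0.451 ± 0.214 and 0.682 ± 0.255 TPM, and after rescaling 0.560 ± 0.238, 0.514 ± 0.246 and 0.618 ± 0.221.

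Ednra read 5.68, 5.79, 7.80 and 6.39 TPM in lean samples, 5.38, 7.35, 6.08 and 5.46 TPM in obese samples, and 8.96, 6.34, 9.91 and 9.80 TPM in NAM-treated samples. Of the NAM-treated samples, 3 of 4 lay above every obese and lean sample, and replicate 2 lay among them. Group means were 6.41 ± 0.97, 6.07 ± 0.91 and 8.75 ± 1.66 TPM, and after rescaling 6.10 ± 0.997, 6.88 ± 0.76 and 7.89 ± 1.14.

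Ednrb read 7.84, 4.53, 3.48 and 6.88 TPM in lean samples, 5.63, 4.44, 4.87 and 4.33 TPM in obese samples, and 4.44, 3.33, 4.37 and 5.75 TPM in NAM-treated samples. The 3 groups overlapped, and the lean samples spread most, from 3.48 to 7.84 TPM. Group means were 5.68 ± 2.02, 4.82 ± 0.59 and 4.47 ± 0.99 TPM, and after rescaling 5.37 ± 1.80, 5.50 ± 0.86 and 4.04 ± 0.76.

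Nr3c1 read 11.1, 11.9, 12.5 and 10.4 TPM in lean samples, 9.70, 10.6, 8.86 and 9.42 TPM in obese samples, and 14.4, 11.1, 12.8 and 14.2 TPM in NAM-treated samples. All 4 NAM-treated samples were above all 4 obese samples, and the lean samples overlapped both. Group means were 11.5 ± 0.93, 9.64 ± 0.72 and 13.1 ± 1.55 TPM. After rescaling they were 10.9 ± 1.03, 10.95 ± 0.65 and 11.9 ± 0.72, within 1 TPM of each other.

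Nr3c2 read 3.13, 2.33, 2.76 and 2.20 TPM in lean samples, 1.81, 2.24, 1.68 and 2.13 TPM in obese samples, and 3.61, 2.01, 3.68 and 2.76 TPM in NAM-treated samples. Lean replicate 4 and NAM-treated replicate 2 lay within the obese range, and the other lean and NAM-treated samples lay above it. Group means were 2.61 ± 0.42, 1.97 ± 0.26 and 3.01 ± 0.79 TPM, and after rescaling 2.47 ± 0.34, 2.23 ± 0.24 and 2.71 ± 0.58.

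The comparison of obese with lean hearts asks how the diseased state differs from its control. None of the 5 genes tested passed the threshold (limma on log2(TPM + 1), Benjamini-Hochberg adjusted p under 0.05 over all 10526 filtered genes, 0 of 5 higher and 0 of 5 lower). Over all filtered genes, 16.8% passed in this comparison as deposited and 1.34% after rescaling. At an unadjusted p under 0.05, 1 of the 5 passed as deposited and 0 after rescaling. That gene was Nr3c1, with a log2 change of -0.23 (SE 0.099, limma adjusted p = 0.121), and its change after rescaling was 0.0065 (95% interval -0.17 to 0.18, adjusted p = 0.982). Nr3c2 had a log2 change of -0.28 as deposited (limma adjusted p = 0.198) and -0.10 after rescaling (interval -0.37 to 0.17). Ace, Ednra and Ednrb had changes of -0.071, -0.068 and -0.15 as deposited (limma adjusted p = 0.769, 0.768 and 0.616) and 0.15, 0.15 and 0.065 after rescaling (adjusted p = 0.617, 0.580 and 0.906). The sign of the difference turned with the scale for 4 of the 5 genes. Their median was -0.15 beside -0.20 for all filtered genes as deposited, and 0.065 beside 0.0032 after rescaling.

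NAM-treated hearts had higher deposited levels of Ace, Ednra, Nr3c1 and Nr3c2 than untreated obese hearts, and none of these 4 differences passed the test after rescaling. As deposited, 4 of the 5 genes tested rose and 0 fell, in a comparison in which 28.8% of all filtered genes were called higher. Nr3c1 rose by 0.41 on the log2 scale (SE 0.099, limma adjusted p = 0.0110), Ace by 0.50 (SE 0.15, adjusted p = 0.0259), Ednra by 0.46 (SE 0.14, adjusted p = 0.0320) and Nr3c2 by 0.42 (SE 0.15, adjusted p = 0.0476). Ednrb had a change of -0.10 (SE 0.20, 95% interval -0.53 to 0.33, limma adjusted p = 0.729). The NAM-treated and obese samples did not overlap for Ace and Nr3c1, as for 28% of all filtered genes in the same direction. After rescaling, 0 of 5 passed, beside 0.713% of all filtered genes in either direction, and 0 had an unadjusted p under 0.05. The rescaled log2 changes were 0.22 for Ace (interval -0.072 to 0.51), 0.17 for Ednra (-0.095 to 0.44), 0.11 for Nr3c1 (-0.065 to 0.28), 0.19 for Nr3c2 (-0.079 to 0.46) and -0.37 for Ednrb (-0.78 to 0.040). Their limma adjusted p-values were 0.467, 0.541, 0.554, 0.497 and 0.369. The median of the 5 genes was 0.42 beside 0.25 for all filtered genes as deposited, and 0.17 beside -0.0078 after rescaling.

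**Figure D2:**
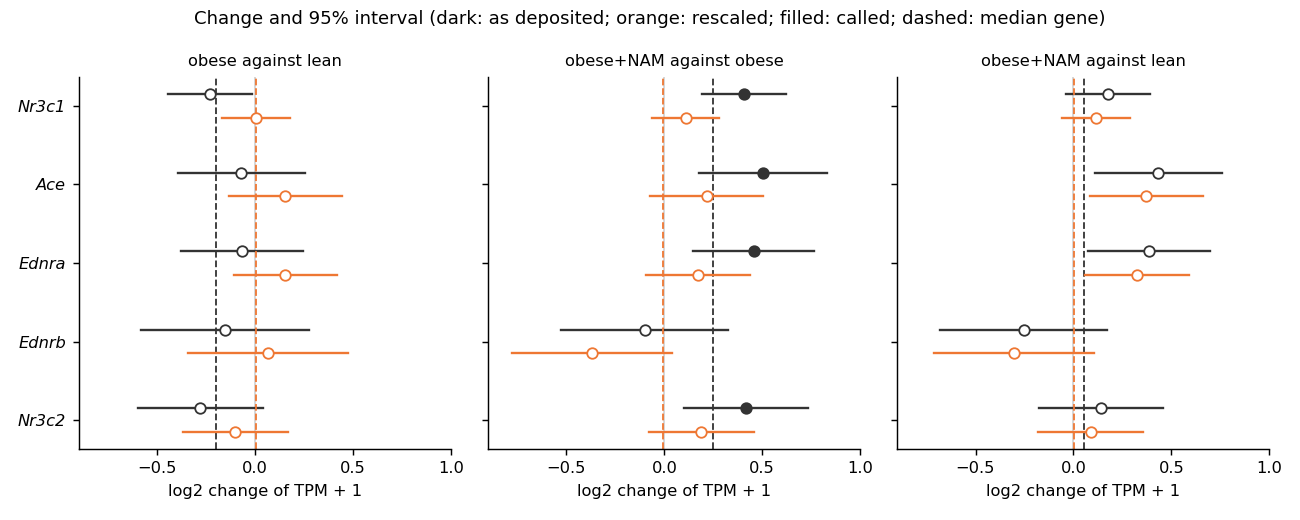
Log2 change on the log2(TPM + 1) scale of the 5 tested genes in the 3 comparisons, as deposited and after rescaling, with 95% intervals, filled points for calls and dashed lines at the median filtered gene. The deposited changes of Ace, Ednra, Nr3c1 and Nr3c2 in NAM-treated against obese hearts (0.41 to 0.50) shrink to between 0.11 and 0.22 after rescaling, with intervals that include 0.

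Nr3c1 kept its call for higher deposited levels under NAM when each of the 12 libraries was left out in turn (12 of 12, limma adjusted p 0.00436 to 0.0365). The call of Ace held in 8 of 12 and ended without obese replicate 3 (adjusted p = 0.0532), obese replicate 4 (0.0615), NAM-treated replicate 1 (0.0796) or NAM-treated replicate 4 (0.0527). The call of Ednra held in 6 of 12 and ended without obese replicate 1 (limma adjusted p = 0.0793), 3 (0.0627) or 4 (0.0778), or NAM-treated replicate 1 (0.0748), 3 (0.0878) or 4 (0.0864). The call of Nr3c2 held in 3 of 12. It ended without lean replicate 2 (limma adjusted p = 0.0572), 3 (0.0582) or 4 (0.0516), which enter through the shared estimate of the spread, and without obese replicate 1 (0.1004), 3 (0.113) or 4 (0.0686) or NAM-treated replicate 1 (0.132), 3 (0.130) or 4 (0.0745). NAM-treated replicate 2, the lowest of its group for 5 of the 6 genes, had the group's highest mitochondrial share (73.8%) and lowest divisor (0.994), and the part of these in its values was not tested. Among libraries whose omission ended calls, NAM-treated replicate 1 stood apart in its summed level of 7 atrial markers, 1126 TPM beside 179 to 235 TPM in the rest of its group. Obese replicate 4 also stood apart in this sum, at 591 TPM beside 123 to 298 TPM, and the obese median (293 TPM) was above the lean median (123 TPM). Of the 6 tested atrial markers, 0 were called in obese against lean hearts on either scale. Other such libraries stood apart in other marker sums. Obese replicate 3 was the highest of its group for fibroblast (920 TPM), macrophage (206 TPM) and erythroid markers (4020 TPM). It was the lowest for atrial markers (123 TPM). Obese replicate 1 was the lowest for fibroblast (524 TPM) and macrophage markers (44.8 TPM). The erythroid sum of NAM-treated replicate 3 was 2302 TPM beside 487 to 1142 TPM in the rest of its group. The part of these sums in the calls was not tested.

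**Figure D3:**
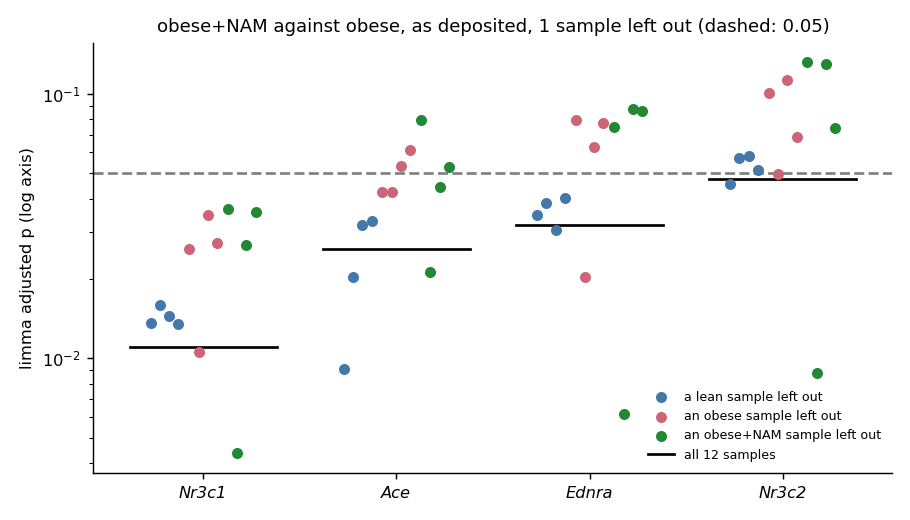
Limma adjusted p-value (log axis) of the 4 called genes for NAM-treated against obese hearts, as deposited, with all samples (bar) and with each of the 12 libraries left out (points, coloured by the group of the library), and a dashed line at 0.05. Nr3c1 stays under 0.05 in 12 of 12 fits, Ace in 8, Ednra in 6 and Nr3c2 in 3.

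In NAM-treated against lean hearts no gene of the 5 passed the same test, with 0 of 5 called on either scale beside 1.83% of all filtered genes as deposited and 2.36% after rescaling. This comparison shares its NAM-treated samples with the one above and its lean samples with the first. Ace and Ednra had an unadjusted p under 0.05 on both scales (2 of 5). Ace had a log2 change of 0.43 as deposited (SE 0.15, limma adjusted p = 0.176) and 0.37 after rescaling (SE 0.13, adjusted p = 0.176). Ednra had 0.39 (SE 0.14, limma adjusted p = 0.201) and 0.33 (SE 0.12, adjusted p = 0.196). Without lean replicate 1, the highest lean sample for Ace, the change of Ace was 0.58 as deposited and 0.51 after rescaling and passed (limma adjusted p = 0.0473 on both scales). Nr3c1 had changes of 0.18 and 0.11 (limma adjusted p = 0.391 and 0.509), Nr3c2 had 0.14 and 0.087 (0.672 and 0.774), and Ednrb had -0.25 and -0.30 (0.549 and 0.454). For Ednrb the intervals ran from -0.68 to 0.17 as deposited and from -0.71 to 0.11 after rescaling.

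Ratios between genes within a sample do not move with the scaling of that sample, and the balance of the endothelin receptors was followed this way. Ednra transcripts per Ednrb transcript numbered 0.725, 1.28, 2.24 and 0.929 in lean samples, 0.956, 1.66, 1.25 and 1.26 in obese samples, and 2.02, 1.90, 2.27 and 1.70 in NAM-treated samples. All NAM-treated samples were above all obese samples, by a narrow gap (1.70 against 1.66), and the lean samples spanned both groups. The mean log2 ratio was 0.24 ± 0.70 for the lean group, 0.33 ± 0.32 for the obese and 0.97 ± 0.17 for the NAM-treated (SD, n = 4 each). The NAM-treated group exceeded the obese group by 0.64 (exact permutation test, two-sided p = 0.0286, the smallest p that 4 against 4 samples allow, and 0.171 after Benjamini-Hochberg adjustment over 12 ratio tests). Against lean hearts the difference was 0.74 (exact permutation p = 0.114, adjusted 0.343), and between obese and lean hearts it was 0.093 (exact p = 0.886, adjusted 0.966).

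The ratio of Ace to Ednrb, both expressed by endothelial cells, was also higher in NAM-treated than in obese samples, without passing the adjusted test. It was 1.203, 1.12, 1.71 and 0.958 in lean samples, 1.19, 1.41, 1.29 and 1.33 in obese samples, and 2.57, 2.42, 1.99 and 1.58 in NAM-treated samples. The NAM-treated and obese samples did not overlap, and their mean log2 ratios, 1.07 ± 0.32 and 0.38 ± 0.10 (n = 4 each), differed by 0.69 (exact permutation p = 0.0286, adjusted 0.171). The difference from lean hearts (0.28 ± 0.35) was 0.79 (exact permutation p = 0.0571, adjusted 0.229). Both ratios share Ednrb as denominator, and neither passed the adjustment. How often ratios of other gene pairs separate these groups was not tested. Leaving out each sample of the groups compared, the NAM-treated hearts stayed above the obese by 0.51 to 0.78 for Ednra to Ednrb and by 0.60 to 0.83 for Ace to Ednrb.

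The balance of the corticosteroid receptors overlapped between the 3 groups. The log2 ratio of Nr3c1 to Nr3c2 was 2.15 ± 0.23 for the lean group, 2.30 ± 0.13 for the obese and 2.16 ± 0.31 for the NAM-treated, so Nr3c1 was the higher in every sample, by 3.49 to 5.52 times. The obese group differed from lean by 0.15 (exact permutation p = 0.286, adjusted 0.686) and the NAM-treated group from obese by -0.14 (exact p = 0.457, adjusted 0.876). The log2 ratio of Agtr1a to Ednra was -3.54 ± 0.81, -3.84 ± 0.70 and -3.74 ± 0.65 in the same order, with differences of -0.30, 0.097 and -0.20 (exact permutation, adjusted p = 0.876, 0.966 and 0.876).

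**Figure D4:**
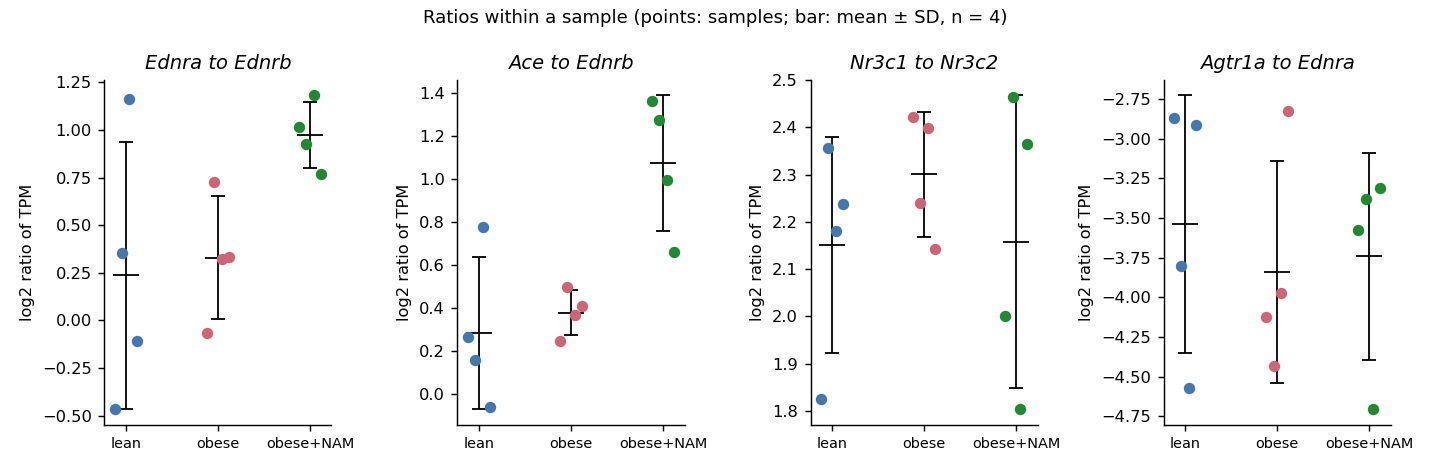
Log2 ratio of the levels of gene pairs within each sample, by group, with bars for the mean ± SD of 4 samples and a range of its own on each axis. For Ednra to Ednrb and Ace to Ednrb all 4 NAM-treated samples lie above all 4 obese samples, while for Nr3c1 to Nr3c2 and Agtr1a to Ednra the groups overlap.

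The upstream sequences of Ace, Ednra and Ednrb are shown because these genes form the ratios in which NAM-treated and obese samples did not overlap. They are the 250 bases before the annotated start in RefSeq on build GRCr8, 5′ to 3′ on the strand of the gene, at chr10:91409879-91410128 (plus strand) for Ace, chr19:47137674-47137923 (plus strand) for Ednra and chr15:87086766-87087015 (minus strand) for Ednrb. Capitals mark matches, on either strand, to GGGCGG, known as the GC box and bound by the Sp family of factors, and to the core promoter motif TATAAA.
Ace: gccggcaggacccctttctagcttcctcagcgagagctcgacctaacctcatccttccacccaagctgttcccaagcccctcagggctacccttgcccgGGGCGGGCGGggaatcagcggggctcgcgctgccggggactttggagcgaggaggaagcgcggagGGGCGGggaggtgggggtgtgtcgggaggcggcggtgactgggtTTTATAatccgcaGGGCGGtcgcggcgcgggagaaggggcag
Ednra: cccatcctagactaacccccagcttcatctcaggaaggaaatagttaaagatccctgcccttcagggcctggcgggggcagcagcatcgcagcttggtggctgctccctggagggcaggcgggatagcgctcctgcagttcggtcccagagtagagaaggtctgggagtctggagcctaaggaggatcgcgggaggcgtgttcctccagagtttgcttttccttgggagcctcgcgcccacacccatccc
Ednrb: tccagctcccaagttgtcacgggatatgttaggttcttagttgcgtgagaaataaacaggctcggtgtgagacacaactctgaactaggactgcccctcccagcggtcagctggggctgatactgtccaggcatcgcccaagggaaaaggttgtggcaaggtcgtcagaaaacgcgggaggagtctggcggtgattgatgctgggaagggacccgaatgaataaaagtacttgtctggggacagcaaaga
The Ace sequence was 69.2% G and C and held 4 GC boxes, beginning 151, 147, 86 and 29 bases before the start, the first pair overlapping, and 1 TATAAA on the opposite strand, 42 bases before the start. The Ednra sequence (61.2% G and C) and the Ednrb sequence (53.2%) held neither motif. None of the 3 held AGAACA, 1 arm of the element bound by the corticosteroid receptors, or the full element (AGAACA, 3 bases of any kind, then TGTTCT), on either strand. Of 33469 RefSeq windows of the same length, 30.5% held GGGCGG, 12.9% TATAAA, 17.5% AGAACA and 0.012% the full element. These are matches of letters only. Of the 6 genes, 5 matched an entry of the promoter table.

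The other genes of the angiotensin system gave no call. Of 19 listed, 15 were in the table and 8 passed the filter, and 0 of 8 were called in any of the 3 comparisons on either scale. Agt, which encodes the precursor of the angiotensins, was listed at 0 in 3 samples, and its highest group mean was 0.122 TPM. Enpep, encoding the aminopeptidase that trims angiotensin II, had means of 10.8 ± 0.91 TPM in lean, 9.49 ± 0.56 TPM in obese and 10.4 ± 1.498 TPM in NAM-treated hearts. Agtr1b, Agtr2 and Bdkrb1 were not analysed here.

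Of 6 genes for endothelins and their converting enzymes, 4 were in the table and only Ece1, which encodes an enzyme that cuts big endothelin, passed the filter. Ece1 had means of 7.59 ± 1.37, 5.73 ± 0.62 and 7.26 ± 0.65 TPM in the same order of groups, with a deposited log2 change of -0.34 for obese against lean (limma adjusted p = 0.0685) and 0.30 for NAM-treated against obese (adjusted p = 0.0790). After rescaling these were -0.12 and 0.018 (limma adjusted p = 0.629 and 0.954). Edn1, encoding the principal ligand of both receptors, was below the filter at 0.592 ± 0.142 TPM in lean hearts, and was listed at 0 in 1 obese sample. Edn2 and Edn3 were not analysed here.

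Among partners of the corticosteroid receptors, Fkbp4 was lower in obese than in lean hearts on both scales. Fkbp4 encodes FKBP52, a co-chaperone that acts with HSP90 on steroid receptors, and had means of 37.7 ± 2.91 TPM in lean, 22.9 ± 1.63 TPM in obese and 32.4 ± 3.14 TPM in NAM-treated hearts (n = 4 each). It fell by 0.69 on the log2 scale as deposited (SE 0.090, limma adjusted p = 0.00112) and by 0.44 after rescaling (SE 0.069, adjusted p = 0.0130). The rescaled call held with each library left out in turn (12 of 12, limma adjusted p 0.0127 to 0.0418). In NAM-treated against obese hearts Fkbp4 rose by 0.48 as deposited (limma adjusted p = 0.00423), with a rescaled change of 0.17 (adjusted p = 0.262). Of the 12 tested genes of this list, 2 fell in obese hearts as deposited (Fkbp4 and the chaperone gene Hsp90ab1) and 1 after rescaling. In NAM-treated against obese hearts 5 rose as deposited and 0 after rescaling. Of all filtered genes, 16.8% were called in either direction in the first of these comparisons as deposited, and 1.34% after rescaling. In the other comparison 28.8% were called higher as deposited, and 0.713% in either direction after rescaling. Beside Fkbp4 the genes that rose were Hsp90ab1, the coactivator gene Ncoa1, the corepressor gene Ncor1 and the histone methyltransferase gene Nsd1. The deposited changes were 0.46 for Hsp90ab1 (limma adjusted p = 0.00477), 0.46 for Ncoa1 (0.00536) and 0.53 for Nsd1 (0.00744). Their rescaled changes were 0.14, 0.20 and 0.30 (limma adjusted p = 0.402, 0.225 and 0.184). The median of the 12 genes in this comparison was 0.29 beside 0.25 for all filtered genes as deposited, and 0.027 beside -0.0078 after rescaling.

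Hsd11b1, which encodes the enzyme that regenerates active glucocorticoid in cells, had means of 21.4 ± 1.11, 21.4 ± 3.598 and 19.8 ± 2.19 TPM and gave no call. Hsd11b2, whose product inactivates glucocorticoid and so leaves the mineralocorticoid receptor to aldosterone, was listed at 0 in 8 samples. Cyp11b1 and Cyp11b2 were not analysed here.

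Of 19 tested genes that respond to corticosteroids, 1 fell in obese against lean hearts as deposited, Klf15, and 1 rose in NAM-treated against obese hearts, Glul. The shares of all filtered genes called in these comparisons were 16.8% and, for higher calls, 28.8%. After rescaling 0 of 19 passed in any comparison. Klf15, a transcription factor gene, had a log2 change of -0.52 (limma adjusted p = 0.0402). Its call ended without lean replicate 1 (limma adjusted p = 0.108) or 3 (0.0728), obese replicate 1 (0.0832), 2 (0.0849) or 4 (0.0766), or NAM-treated replicate 3 (0.0509), and also with no filter (0.0688) or only the 8 obese and lean samples (0.0573). Glul, encoding glutamine synthetase, had a change of 0.35 (limma adjusted p = 0.0315), and its call ended without obese replicate 1 (0.0872), 2 (0.0535) or 3 (0.0508) or NAM-treated replicate 1 (0.0904) or 3 (0.0532), and also with no filter (0.0525). The receptor targets Sgk1, Fkbp5, Tsc22d3 and Per1 did not pass in any comparison. Sgk1 illustrates their spread, with means of 14.3 ± 10.2, 8.30 ± 1.88 and 8.40 ± 4.09 TPM. In NAM-treated against obese hearts the median log2 change of the 19 genes was 0.073 beside 0.25 for all filtered genes as deposited, and -0.24 beside -0.0078 after rescaling.

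Angiotensin and endothelin receptors signal through Gq and related G proteins to phospholipase C, calcium release and protein kinase C. Of 20 tested genes of this route, 3 fell in obese hearts and 5 rose in NAM-treated against obese hearts as deposited, beside 16.8% of all filtered genes called and 28.8% called higher, and 0 passed after rescaling. The median of the 20 in NAM-treated against obese hearts was 0.22 beside 0.25 for all filtered genes as deposited, and -0.030 beside -0.0078 after rescaling. The 3 were Plcb4 (a phospholipase C), Gna12 (a G protein subunit) and Prkce (a protein kinase C), with log2 changes of -0.40, -0.41 and -0.43 (limma adjusted p = 0.00797, 0.00755 and 0.0370). The call of Prkce in obese hearts ended without lean replicate 1 (limma adjusted p = 0.107), 2 (0.0689) or 4 (0.0504) or obese replicate 1 (0.0729), 3 (0.0994) or 4 (0.05999), and also with no filter (0.0601) or a pseudocount of 5 (0.0503). The 5 were the same 3 genes, with changes of 0.47, 0.35 and 0.67 (limma adjusted p = 0.00369, 0.00987 and 0.00446), and Itpr1 and Rgs5 (adjusted p = 0.0357 and 0.0428). Prkce had the largest rescaled change of the 3, 0.41 (limma adjusted p = 0.0972).

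Of 15 tested growth and matrix genes known to respond to these receptors, 1 fell in obese hearts (Ncf1, log2 change -0.42, limma adjusted p = 0.00983) and 2 rose in NAM-treated against obese hearts (Ncf1, 0.45, adjusted p = 0.00528, and Rac1, 0.40, adjusted p = 0.00919), all as deposited. The shares of all filtered genes called were again 16.8% and, for higher calls, 28.8%. After rescaling 0 of 15 passed. Ncf1 and Rac1 encode components of the NADPH oxidase, an enzyme that makes superoxide. In NAM-treated against obese hearts the median of the list was 0.033 beside 0.25 for all filtered genes as deposited, and -0.22 beside -0.0078 after rescaling.

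**Figure D5:**
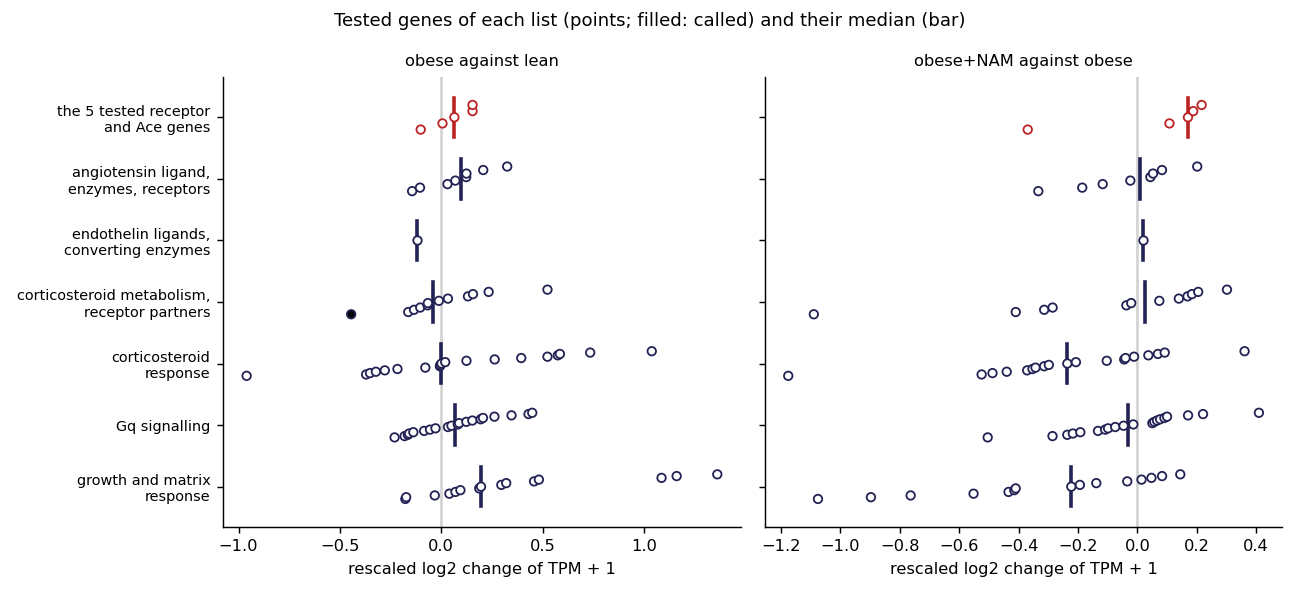
Rescaled log2 change (points, filled where called) of each tested gene of the pathway lists and of the 5 tested receptor and Ace genes, with list medians (bars), in obese against lean and in NAM-treated against obese hearts. The medians of the corticosteroid response genes and of the growth and matrix genes in NAM-treated against obese hearts lie at -0.24 and -0.22, and no gene but Fkbp4 passes the test, in obese against lean hearts.

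The genes studied are expressed by several cell types, and in bulk tissue fewer cells of a type and less RNA per cell cannot be told apart. The summed level of 9 of 10 listed endothelial markers, all above 0 in every sample, ran from 102 to 114 TPM in lean, 87.1 to 103 in obese and 94.8 to 120 in NAM-treated hearts, and after rescaling from 97.7 to 110, 99.5 to 123 and 88.8 to 103. As deposited, 1 of the 9, Cdh5, was called lower in obese than in lean hearts (log2 change -0.40, limma adjusted p = 0.0274). Cdh5 alone was also called higher in NAM-treated than in obese hearts (0.44, limma adjusted p = 0.0125). The shares of all filtered genes were 16.8% called and 28.8% called higher, and 0 of 9 were called after rescaling. The sum of 10 of 10 smooth muscle and pericyte markers ran from 189 to 203, 143 to 164 and 151 to 230 TPM as deposited, and from 175 to 197, 154 to 188 and 152 to 199 after rescaling. As deposited, the median of that sum was 149.7 TPM in obese and 215 TPM in NAM-treated hearts, with 2 of 7 tested markers called higher (Rgs5 and Abcc9), beside 28.8% of all filtered genes. After rescaling the medians were 174.5 and 190.5 TPM and 0 of 7 were called. Most of the sum was Rgs5, with a mean of 107 TPM in obese hearts. Abcc9 is also expressed by cardiomyocytes. In obese against lean hearts 1 of the 7 tested smooth muscle and pericyte markers was called lower as deposited and 0 after rescaling. Of all filtered genes, 16.8% and 1.34% were called. The sum of 9 of 10 fibroblast markers ran from 592 to 645, 524 to 920 and 520 to 655 TPM as deposited. After rescaling it ran from 575 to 617, 624 to 1052 and 523 to 573, so that the 3 groups did not overlap, with the obese highest. The gap between lean and NAM-treated hearts was narrow (574.6 against 573.3 TPM). On that scale 2 of the 9 fell in NAM-treated against obese hearts, Pi16 and Gsn, beside 0.713% of all filtered genes called in either direction. In obese against lean and in NAM-treated against lean hearts 0 of 9 were called after rescaling. As deposited, 1 of the 9 was called higher in obese than in lean hearts and 1 lower in NAM-treated than in obese hearts. The shares of all filtered genes called in either direction were 16.8% and 29.2%. The sum of 9 of 10 cardiomyocyte markers ran from 20495 to 23794, 14667 to 16559 and 17820 to 20700 TPM. After rescaling it ran from 19678 to 21743, 16760.1 to 19463 and 16650 to 18417, so that lean hearts remained above both other groups without overlap. Of these markers, 9 were called lower in obese than in lean hearts as deposited and 1 after rescaling, beside 16.8% and 1.34% of all filtered genes called. In NAM-treated against obese hearts 8 were called higher as deposited, beside 28.8% of all filtered genes, and 0 after rescaling. In NAM-treated against lean hearts 1 was called lower as deposited and 2 after rescaling, beside 1.83% and 2.36% of all filtered genes called. The sum of 5 of 6 erythroid markers was 724 to 1596 TPM in lean, 1662 to 4020 TPM in obese and 487 to 2302 TPM in NAM-treated hearts, with obese above lean without overlap. After rescaling the lean sums were 693 to 1469 and the obese sums 1791 to 4594. Of the 5 erythroid markers, 0 were called in any of the 3 comparisons on either scale. How often sums of other genes separate these groups was not tested. The sum of 10 of 10 macrophage markers was 69.3 to 111 TPM in lean, 44.8 to 206 TPM in obese and 99.7 to 109 TPM in NAM-treated hearts, with the widest spread among obese samples. Of the 9 tested macrophage markers, 0 were called in any comparison on either scale. The part of cell makeup in the changes of the receptor genes and Ace was not tested.

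The genes whose rescaled log2(TPM + 1) levels most resembled each tested gene over the 12 samples are given as a description, since all points share their libraries. For Ace they were Prmt5 (Pearson r = 0.90) and Lsamp (0.84). For Ednra they were Senp5 (0.89), Sp3 (0.88) and Fcho2 (0.87). For Ednrb they were Pcnp (0.89), Acsl5 (0.88) and Stub1 (0.86). For Nr3c1 they were Uggt1 (0.92), Zbtb25 (0.92) and Tmem196 (0.90), and for Nr3c2 Rabgap1 (0.85) and Gab1 (0.81). None of the 6 genes appeared among those most like another of them.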

How the data were processed

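RNA from myocardium of 12 ZSF1 rat samples was sequenced with a directional library kit, per the labels' protocols. The authors deposited 1 table of TPM per gene, per the file headers, with Ensembl gene identifiers and symbols. The submitters' processing notes name the build Rnor 6.0 and limma. The aligner and counter: not given in the sources used here. A text mark stands in place of a number for 498 genes in the columns of the NAM-treated samples. Those deposited columns therefore hold other entries beside TPM, and the 498 genes were left out. Columns were matched to samples by title.

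A filter kept genes at 1 TPM or more in 4 or more samples. Values were tested as log2(TPM + 1) with limma 3.58.1 (statmod 1.5.0, R 4.3.3), with 3 group means, 9 residual degrees of freedom, trended and robust variances, two-sided tests and Benjamini-Hochberg adjustment over all filtered genes (threshold 0.05). Fold changes on this scale understate changes of low genes. The same fit was run after median-of-ratios rescaling. The fit was tested on simulated data. Ratios were tested by exact permutation (35 splits). Figures were drawn with matplotlib 3.10.9 in Python 3.11.15. Depth is unknown, so no counting error is given.

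The 6 genes, the pathway lists and the marker lists were chosen with earlier results of these data known. Named genes were the 6 members, up to 4 pathway genes per list that passed after rescaling, up to 3 per list by p among those that passed as deposited only, and the 3 genes most correlated with each tested member, of which some are not reported here. Ncor1, Itpr1, Rgs5, Abcc9, Cdh5, Pi16, Gsn and the pathway genes given without a call were named outside this rule, with their values seen. Alternatives were other pseudocounts, filters and scalings, plain variances, 8 samples, a replicate block and leaving out each library. Numbers shared by titles across groups were not taken as pairs in the main fits, and the column names number the samples without repeats. Correlations of deviations between same-numbered samples ran from -0.0490 to 0.0724, which cannot exclude a pairing.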

Additional observations from a re-analysis of the deposited data

How the results depend on the processing

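Depth is unknown from TPM, which limits what can be said of the lowest gene, Agtr1a. Of the genes tested, 4 were called higher in NAM-treated than in obese hearts as deposited. That count was 2 with no filter, where Ednra (limma adjusted p = 0.0540) and Nr3c2 (0.0769) were lost, and 0 with quantile normalization, median-of-ratios rescaling or TPM without mitochondrially encoded genes. It ran from 1 to 4 with each library left out. With the replicate block it was 3 (Nr3c2 at limma adjusted p = 0.0663), and the block changed no other call of the 5 genes, though it ended those of Klf15 (0.0685) and Glul (0.0532). With only the 8 obese and NAM-treated samples the call of Nr3c2 was also lost (limma adjusted p = 0.0654). For NAM-treated against lean hearts the count was 0, but 1 (Ace, 0.57, adjusted p = 0.0358) without mitochondrially encoded genes, and 0 to 1 with each library left out, on both scales.

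For obese against lean hearts the deposited log2 changes of Ace, Ednra, Ednrb and Nr3c1 turned to 0.16, 0.16, 0.060 and 0.0097 with quantile normalization, 0.15, 0.15, 0.065 and 0.0065 with rescaling, and 0.22, 0.22, 0.12 and 0.053 without mitochondrially encoded genes. With each library left out, the deposited change ran from -0.18 to 0.081 for Ace and from -0.15 to 0.017 for Ednra, and the rescaled change from -0.10 to 0.20 for Ednrb and from -0.034 to 0.049 for Nr3c1. The deposited change of Ednrb in NAM-treated against obese hearts ran from -0.21 to 0.0063. Log2 ratios ran from -0.021 to 0.26 (Ace to Ednrb) and -0.14 to 0.40 (Ednra to Ednrb) for obese against lean, from -0.10 to 0.43 (Agtr1a to Ednra) for NAM-treated against obese, and from -0.55 to 0.12 (Agtr1a to Ednra) and -0.10 to 0.13 (Nr3c1 to Nr3c2) for NAM-treated against lean. With the block the ratios in which NAM-treated and obese samples did not overlap had adjusted p = 0.375 (exact sign-flip), but 4 pairs cannot give a p below 0.125, so this test could not pass. Among ranges that kept their sign but were wide were those of the deposited Ednrb change, from -0.33 to -0.0013 for obese against lean and from -0.43 to -0.10 for NAM-treated against lean. Others were the ratio of Nr3c1 to Nr3c2 for NAM-treated against obese, from -0.24 to -0.024, and of Agtr1a to Ednra for obese against lean, from -0.64 to -0.078.

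Genes called among all filtered genes numbered 1770, 3077 and 193 as deposited (obese with lean, then NAM-treated with obese, then NAM-treated with lean), and 141, 75 and 248 after rescaling. In the same order they were 126, 66 and 223 with quantile normalization and 62, 208 and 569 without mitochondrially encoded genes. With no filter the deposited count for NAM-treated against lean was 124, and the rescaled counts were 76, 31 and 146. With the replicate block the rescaled count for NAM-treated against obese was 29. With each library left out the counts ran from 1006 to 1966, 1867 to 3640 and 69 to 188 as deposited, and from 27 to 224, 10 to 156 and 105 to 291 after rescaling. The cause of these differences was not tested.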

Other observations

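Ednra and Nr3c2 lie close together on chromosome 19 of the rat RefSeq assembly GRCr8, with 6 annotated genes between them, 3 of them protein coding. The values of these 3 were looked up after the neighbourhood was seen. Arhgap10 rose in NAM-treated against obese hearts as deposited (log2 change 0.39, limma adjusted p = 0.0356), with a rescaled change of 0.13 (adjusted p = 0.662). In this comparison 28.8% of all filtered genes were called higher as deposited. Prmt9, encoding an arginine methyltransferase, had 0.29 as deposited (limma adjusted p = 0.111) and 0.033 after rescaling. Tmem184c had 0.18 as deposited (limma adjusted p = 0.419) and -0.083 after rescaling.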
